A study of Mus musculus with 9 samples.

Results

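Srrm4, a splicing factor of neuroendocrine prostate cancer, and Rest, the transcriptional repressor of neuronal genes, were 2 of the 12125 genes counted in mouse prostate cancer cells that received interleukin-27 plasmids. They were taken by name, and Srrm4 was singled out because its level fell with the targeted cytokine. Its values in the comparisons with the targeted plasmid therefore chose it, and they are given as a description with no test. The 9 RNA-seq libraries were in 3 groups of 3. IL27_pepL libraries came from cells given a plasmid for interleukin-27 that carried the pepL peptide, which directs it to the interleukin-6 receptor alpha chain. IL27_scr libraries came from cells given interleukin-27 with a non-specific control peptide. Plasmid control libraries came from cells given the empty pcDNA3.1 plasmid. The cells were TC2R (TRAMPC2-Ras), a C57/BL6 line made by transducing TRAMP-C2 prostate cancer cells with a lentivirus for activated H-rasG12V and a further lentivirus. All 3 groups carried both lentiviruses. Each well received 1.5 µg of plasmid with a lipid reagent for 6 h, and cells were collected 24 h after transfection began. The labels do not say whether replicates were separate cultures, so p-values measure the spread between these libraries, which may be technical. The share of cells that took up plasmid is not given, and in bulk RNA fewer cells of a kind and less RNA per cell cannot be told apart.

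SRRM4 is an SR-related protein that binds next to very short exons and promotes their inclusion in the messenger RNAs of neurons and endocrine cells. REST is a zinc finger protein that binds a long element beside neuronal genes and recruits deacetylases and demethylases through the CoREST and Sin3 corepressors. The 2 factors act on each other: REST represses Srrm4 in non-neural cells, and SRRM4 changes the splicing of Rest so that a truncated form with little repressor activity, REST4, is made. In human prostate cancer, SRRM4 and loss of REST activity are known from tumours that gain neuroendocrine features under hormone therapy. Gene-level counts do not separate the REST and REST4 transcripts, so splicing was not analysed here.

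Srrm4 (ENSMUSG00000063919.11) lies on chromosome 5 of GRCm38/mm10, from 116439275 to 116591817 on the minus strand, with 13 exons in its longest transcript of 7472 bases. Its longest exon has 5599 bases, 74.9% of that transcript, and its shortest has 27. The antisense gene Srrm4os overlaps 68 of the 8678 bases covered by Srrm4 exons, or 0.784%, and had no row in the count table. Whether counting used strand is not given in the sources used here. Rest (ENSMUSG00000029249.15) lies on the same chromosome, from 77265491 to 77286432 on the plus strand, with 4 exons in a longest transcript of 7004 bases. No annotated gene shared exon bases with Rest.

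The promoter of Srrm4 is shown because the results turn on the level of this gene's RNA. It is the RefSeq sequence of build GRCm38.p6 at chr5:116591768-116592067 on the minus strand, from 250 bases before the transcription start to 50 bases after it. Capitals mark 2 matches to CACGNG, a class C site bound by HES-type repressors, and 1 match to TGACG, the half-site of the cyclic AMP response element, which reads CGTCA on this strand.
Srrm4 promoter: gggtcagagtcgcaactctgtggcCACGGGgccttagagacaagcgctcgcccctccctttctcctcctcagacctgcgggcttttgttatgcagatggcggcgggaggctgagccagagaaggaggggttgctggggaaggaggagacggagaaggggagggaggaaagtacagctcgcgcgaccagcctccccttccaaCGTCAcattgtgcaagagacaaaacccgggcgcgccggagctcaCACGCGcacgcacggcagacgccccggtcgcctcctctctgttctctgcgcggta
The window held 25 CpG dinucleotides, against a median of 7 over all 32851 promoters of this length, and its GC content was 64.3% against a median of 52.7%. The CACGNG matches began at positions -226 and -5 from the start, and 27.5% of all promoters hold this motif on either strand. The TGACG match began at position -49, and 20.8% of promoters hold it. The other motifs searched on both strands had no match in these letters. They were the left part of the REST element, TTCAGCACC (0.371% of promoters), its right part (0.521%), the N-box CACNAG (42.5%), the gamma-activated site TTCNNNGAA (8.30%), the interferon-stimulated response element (3.44%) and the GC box GGGCGG (35.7%). Each match is a description of the letters and not evidence of binding.

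Srrm4 RNA was lower in IL27_pepL cells than in both other groups, while IL27_scr and plasmid control overlapped. Its fitted level fell by 41.0% against plasmid control and fell by 45.0% against IL27_scr. It was counted at 112, 108 and 83 reads in IL27_pepL replicates 1, 2 and 3, at 205, 211 and 157 in IL27_scr, and at 177, 161 and 148 in plasmid control. Scaled by the TMM method to a common library total (CPM), these were 3.28, 3.21 and 2.81 CPM in IL27_pepL, 5.97, 5.80 and 5.17 CPM in IL27_scr, and 5.05, 5.38 and 5.39 CPM in plasmid control. The highest IL27_pepL library was thus below the lowest library of either other group. The group means were 3.10 ± 0.250 CPM in IL27_pepL, 5.65 ± 0.422 CPM in IL27_scr and 5.28 ± 0.196 CPM in plasmid control (SD, n = 3 each). Counting error alone was 6.88% to 10.98% of a library's value. Srrm4 passed the table's low-count limit in all 3 groups, not through one group alone.

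**Figure D1:**
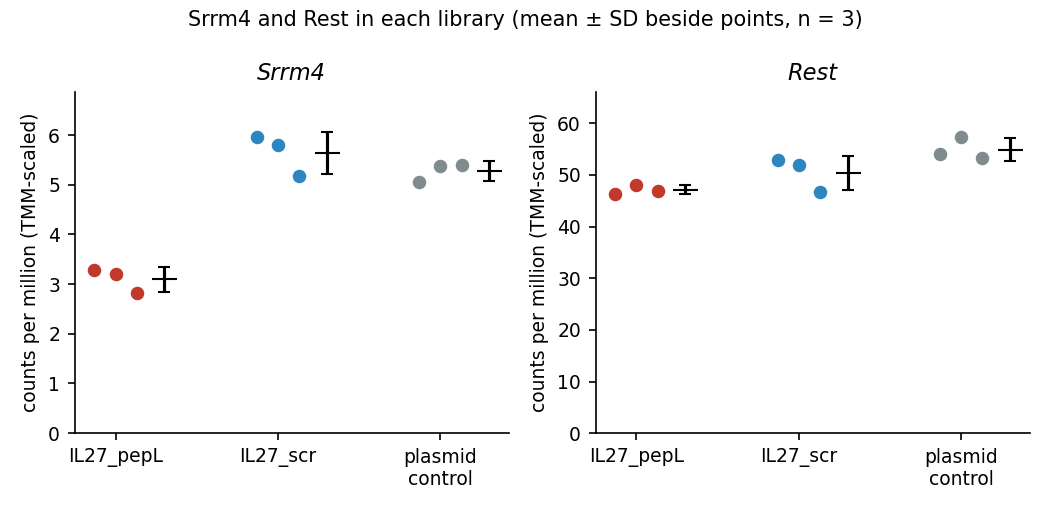
Level of Srrm4 (left) and Rest (right) in each library, in TMM-scaled CPM, with 1 point per library and the group mean ± SD (n = 3) beside it. The 3 IL27_pepL libraries lie at 2.81 to 3.28 CPM for Srrm4, below the 6 others, while for Rest they lie at 46.3 to 48.0 CPM and overlap IL27_scr.

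Against plasmid control, the log2 fold change of Srrm4 in IL27_pepL was -0.76 ± 0.11 (SE), a ratio of 0.590. Genes whose IL27_pepL libraries all lay below plasmid control made up 13.4% of the 12125 genes, and nothing is read from that share since this contrast chose Srrm4. Ordered by fold change, Srrm4 was in place 19 from the bottom among all 12125 genes. Nothing is read from its place, for the same reason. Among the 11382 genes that averaged 1 CPM or more, Srrm4 was in place 7 from the bottom. Its neighbours in that order were Zfp748, a zinc finger gene, at -0.78 and the predicted gene Gm10416 at -0.76.

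Against IL27_scr, the log2 fold change of Srrm4 in IL27_pepL was -0.86 ± 0.11 (SE), a ratio of 0.550. All 3 IL27_pepL libraries lay below IL27_scr, as for 14.3% of genes, and nothing is read from that share either. Srrm4 stood in place 9 from the bottom among all 12125 genes in this comparison, and nothing is read from its place. Among the genes that averaged 1 CPM or more it was in place 3. The calcium channel gene Ryr1 at -0.92 and the zinc finger gene Zfp941 at -0.90 came before it. The MAP kinase phosphatase gene Dusp2 at -0.78 came after it. The 2 comparisons share the IL27_pepL libraries. Across leaving out each library in turn, the fold change against plasmid control ran from -0.80 to -0.70 and that against IL27_scr from -0.92 to -0.80.

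The comparison of IL27_scr with plasmid control did not enter the choice of Srrm4 and could be tested. The log2 fold change was 0.10 ± 0.10 (SE), with a 95% interval of -0.12 to 0.33, and the adjusted p was 0.999 by edgeR's quasi-likelihood test over all 12125 genes. That interval spans ratios of 0.921 to 1.25. In this comparison 0.0247% of all genes passed the threshold of 0.05, 0.0165% as higher and 0.00825% as lower.

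Rest RNA differed less than Srrm4 RNA in the 2 IL27_pepL comparisons, where the fall of Srrm4 had chosen that gene. In IL27_scr against plasmid control the log2 fold changes were of similar size, -0.12 for Rest and 0.10 for Srrm4. Rest was lower in IL27_pepL than in plasmid control in every library, without passing the test. It was counted at 1582, 1617 and 1386 reads in IL27_pepL replicates 1, 2 and 3, at 1813, 1886 and 1416 in IL27_scr, and at 1895, 1718 and 1460 in plasmid control. These were 46.3, 48.0 and 47.0 CPM in IL27_pepL, 52.8, 51.9 and 46.6 CPM in IL27_scr, and 54.1, 57.5 and 53.2 CPM in plasmid control. IL27_pepL and plasmid control did not overlap, whereas IL27_scr replicate 3 lay among the IL27_pepL libraries. The means were 47.1 ± 0.876 CPM in IL27_pepL, 50.4 ± 3.32 CPM in IL27_scr and 54.9 ± 2.25 CPM in plasmid control (SD, n = 3 each).

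In IL27_pepL against plasmid control, Rest had a log2 fold change of -0.22 ± 0.06 (SE), a ratio of 0.858, with an edgeR adjusted p of 0.0693, where 1.62% of all genes passed, 1.2% as lower. Its groups did not overlap, which held for 13.4% of genes in that direction. The adjusted p was 0.0238 with DESeq2 and 0.0407 in edgeR without IL27_pepL replicate 1, and over 20 alternatives it ran from 0.0238 to 0.308. When each library was also given a correction for length and GC content of transcripts, an alternative chosen after seeing the data, the fold change was -0.14 (edgeR adjusted p = 0.174).

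In IL27_scr against plasmid control, the log2 fold change of Rest was -0.12 ± 0.06 (SE), with a 95% interval of -0.25 to 0.00 and an edgeR adjusted p of 0.999. The groups did not overlap, as for 5.25% of genes in that direction, and the nearest libraries were at 52.8 CPM in IL27_scr and 53.2 CPM in plasmid control. In IL27_pepL against IL27_scr it was -0.10 ± 0.06 (SE), with a 95% interval of -0.22 to 0.02 and an edgeR adjusted p of 0.316, where 2.52% of all genes passed. Only IL27_pepL and plasmid control, the ends of the order, came near the threshold for Rest, and neither neighbouring pair of groups passed.

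Per kilobase of longest transcript, Srrm4 averaged 0.415 CPM in IL27_pepL, 0.756 CPM in IL27_scr and 0.706 CPM in plasmid control. Rest averaged 6.73 CPM per kilobase in IL27_pepL, 7.20 in IL27_scr and 7.84 in plasmid control. Over all 9 libraries, 9.84% of 11694 genes with a known length had a lower level per kilobase than Srrm4, and 42.1% had a lower level than Rest. Srrm4 was thus a low-abundance RNA in these cells and Rest one of middling abundance.

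Because both genes were counted in the same libraries, their ratio does not depend on library scaling. There were 7.08, 6.68 and 5.99 Srrm4 reads per 100 Rest reads in IL27_pepL, 11.3, 11.2 and 11.1 in IL27_scr, and 9.34, 9.37 and 10.1 in plasmid control. The ratios of the 3 groups did not overlap, with IL27_scr highest. How many other gene pairs separate in this way was not computed, so nothing is read from the separation. Between IL27_scr and plasmid control neither gene passed alone (edgeR adjusted p = 0.999 for both). The means were 6.58 ± 0.552 in IL27_pepL, 11.2 ± 0.110 in IL27_scr and 9.62 ± 0.451 in plasmid control (SD, n = 3 each). No test is given, since 3 libraries against 3 cannot pass 0.05 in an exact permutation test and Srrm4 was chosen on 2 of the 3 comparisons.

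Genes with transcripts like those of the members in length and GC content were on balance slightly lower in IL27_pepL libraries. Among 246 genes within 0.25 log2 units of the length of Srrm4 and 2.5 points of its GC content, the median log2 fold change was -0.07 against plasmid control and -0.05 against IL27_scr, with quartiles of -0.15 and -0.01 in the first. Srrm4 lay below the lower quartile in both, and nothing is read from that, since these contrasts chose it. With the length and GC offset its fold changes were -0.70 against plasmid control and -0.83 against IL27_scr. In IL27_scr against plasmid control, which did not choose it, Srrm4 was at 0.10, above the window's quartiles of -0.07 and 0.01. For Rest, the 357 genes of like length and GC had medians of -0.10 for IL27_pepL against plasmid control, -0.03 for IL27_scr against plasmid control and -0.07 for IL27_pepL against IL27_scr. Rest lay below the lower quartiles of -0.16 in the first and -0.07 in the second, and within the quartiles of -0.12 and 0.01 in the last.

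**Figure D2:**
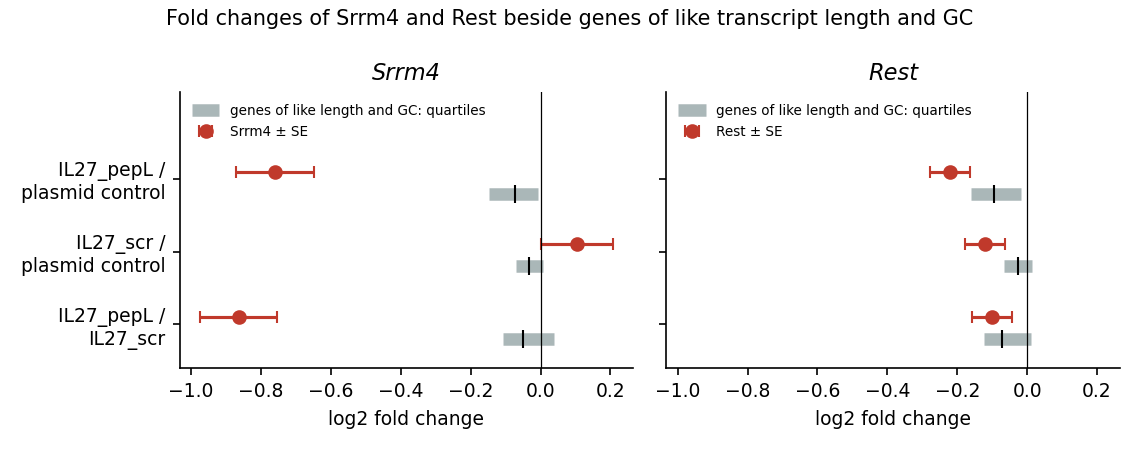
Log2 fold change ± SE of Srrm4 (left) and Rest (right) in 3 comparisons, drawn above a grey bar for the quartiles and a tick for the median of genes of like length and GC. Srrm4 is at -0.76 and -0.86 in the IL27_pepL comparisons, which chose it, so nothing is read from its distance to the bars there. Rest is between -0.22 and -0.10.

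The libraries held 27609884 to 35959983 counts. Every row of the table had at least 99 reads over the 9 libraries, so genes without a row could not be tested here. Reads of the ribosomal RNA gene Rn45s made up 0.286% to 0.474% of counts in IL27_pepL, 0.313% to 0.405% in IL27_scr and 1.21% to 1.49% in plasmid control. Without them the fold changes were -0.76 for Srrm4 and -0.22 for Rest in IL27_pepL against plasmid control. The cells are labelled as prostate adenocarcinoma, and their markers were checked. All 8 mesenchymal genes listed were counted, and their summed level was 4023 to 4425 CPM in IL27_pepL, 3890 to 3946 CPM in IL27_scr and 3871 to 3998 CPM in plasmid control. Most of that sum was Vim, at a mean of 3155 CPM in IL27_pepL, 2841 CPM in IL27_scr and 2801 CPM in plasmid control. In IL27_pepL, 3 of the 8 genes lay above 0 against plasmid control and 6 against IL27_scr, with median log2 fold changes of -0.02 and 0.08. Of 17 luminal genes 9 had a row, while Krt18, Epcam and Pbsn were among those with none and the keratin gene Krt8 was near 2 CPM. Those 9 summed to 960 to 989 CPM in IL27_pepL, 1003 to 1047 CPM in IL27_scr and 992 to 1034 CPM in plasmid control. None of the 4 basal genes had a row. Of other cell types, 2 of 8 leukocyte genes (Cd68 and Csf1r), 2 of 4 endothelial genes and 1 of 7 neural genes had rows, and their sums were at most 9.32, 7.63 and 4.61 CPM in any library. Ptprc, the pan-leukocyte marker, and Pecam1, the endothelial marker, had no row. No mesenchymal, leukocyte, endothelial or neural marker passed in the edgeR fit without a replicate block. With the block, in IL27_pepL against IL27_scr, the smooth muscle actin gene Acta2 rose (0.40 ± 0.08, edgeR adjusted p = 0.0199) and the endothelial receptor gene Kdr fell (-0.49 ± 0.12, 0.0327). Against plasmid control, Vim rose with the block (0.17 ± 0.05, edgeR adjusted p = 0.0458) and Mbp fell (-0.48 ± 0.12, 0.0422). Of all genes, 9.15% passed with the block against IL27_scr and 8.4% against plasmid control. Without the block, an unadjusted edgeR p under 0.05 was found for Cd68 (0.0381) and Mbp (0.00216) against plasmid control, and for Kdr (0.0204) and Mbp (0.0317) against IL27_scr. Of the 8 mesenchymal genes, 3 had an unadjusted p under 0.05 in each IL27_pepL comparison, and DESeq2 called 1 in each. Over all 12125 genes, 2784 had an unadjusted edgeR p under 0.05 against plasmid control and 2823 against IL27_scr. DESeq2 called 774 and 793 genes in these comparisons. Counts of this kind for the lists below are to be read beside these totals. The part of these markers in the results was not tested.

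Few genes that act with REST passed the test. The list of corepressors and enzymes that REST recruits held 20 genes, and all 20 were counted. For IL27_pepL against plasmid control, 0 of them passed the edgeR test without a replicate block, 6 had an unadjusted p under 0.05, DESeq2 called 2 and limma-voom 0. Of all 12125 genes, 2784 had a p that low and DESeq2 called 774. The median log2 fold change of the 20 was 0.01, against 0.00 over all genes. The lowest p-values belonged to Suds3, a Sin3 subunit, at 0.23 ± 0.06 (adjusted p = 0.0693) and Hmg20b, an HMG-box subunit of the CoREST complex, at 0.22 ± 0.06 (adjusted p = 0.0730), both by edgeR. Rcor1, the CoREST scaffold, was at -0.12 ± 0.06 and the demethylase gene Kdm1a at 0.04 ± 0.04. These 2 were chosen after their values were seen and do not stand for the complex. Of the 20 genes, 12 lay above 0. With a replicate block Hmg20b and Suds3 rose and Kdm5c fell (edgeR adjusted p = 0.0387, 0.0380 and 0.0469), where 8.4% of all genes passed.

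For IL27_pepL against IL27_scr, 1 of the 20 corepressor genes rose, Hmg20b, where 1.09% of all genes passed as higher. It was at 26.8, 28.1 and 28.8 CPM in IL27_pepL, 23.0, 22.7 and 24.4 CPM in IL27_scr and 23.8, 23.9 and 24.3 CPM in plasmid control. The IL27_pepL libraries lay above all 6 others, and 11.7% of genes lay so against IL27_scr. The log2 fold change against IL27_scr was 0.25 ± 0.06 (edgeR adjusted p = 0.0371). This call was not stable, since leaving out any of 7 single libraries raised the edgeR adjusted p above 0.05. It was 0.111 and 0.0648 without replicates 2 and 3 of IL27_pepL, 0.151, 0.147 and 0.0740 without replicates 1, 2 and 3 of IL27_scr, and 0.0688 and 0.0583 without replicates 1 and 3 of plasmid control. It was 0.0859 in a fit of the compared groups alone and 0.0797 with the length and GC offset, and over 20 alternatives it ran from 0.00925 to 0.151. In IL27_scr against plasmid control 0 genes of any list passed by edgeR, DESeq2 or limma-voom. Outside the mesenchymal markers, where Col1a1 and Col1a2 had an unadjusted p under 0.05, 0 listed genes had one that low.

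Genes that set the level or location of the REST protein include those of the SCF ubiquitin ligase, which marks REST for degradation, the deubiquitinase USP7 and the small phosphatases of the CTDSP family. All 16 listed were counted and 0 passed in any comparison in the edgeR fit without a replicate block. In IL27_pepL against plasmid control 3 had an unadjusted p under 0.05, DESeq2 called 2 and limma-voom 0, and the median was 0.02. Of all 12125 genes, 2784 had a p that low there and DESeq2 called 774. Skp1a, the SCF adaptor, was at 182.5 ± 7.61 CPM in IL27_pepL, 156.4 ± 4.55 CPM in IL27_scr and 155.0 ± 10.8 CPM in plasmid control (SD, n = 3 each). Its log2 fold changes were 0.24 ± 0.06 against plasmid control and 0.22 ± 0.05 against IL27_scr (edgeR adjusted p = 0.0513 and 0.0519). Of the 16 genes, 3 had an unadjusted p under 0.05 against IL27_scr as well, where DESeq2 called 1 and limma-voom 0. Of all genes, 2823 had a p that low there and DESeq2 called 793. Rbx1, the RING subunit of the same ligase, was at 0.21 ± 0.06 against plasmid control and 0.18 ± 0.06 against IL27_scr (edgeR adjusted p = 0.0959 and 0.124). With a replicate block Skp1a and Rbx1 rose against plasmid control (edgeR adjusted p = 0.0191 and 0.0458), where 8.4% of all genes passed. Btrc, the F-box protein that binds REST, named after its values were seen, was at 0.00 ± 0.06 against plasmid control.

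Neuronal genes known as REST targets were mostly without rows: 14 of 50 were counted, and Stmn2, Snap25, Chga, Chgb, Syp and Scg2 were among those not counted. Of the 14, 0 passed in any comparison in the edgeR fit without a replicate block. For IL27_pepL against plasmid control, 1 had an unadjusted p under 0.05 and both other tools called 0, with a median of -0.07. Nefm, the medium neurofilament chain, had 9, 7 and 2 reads in IL27_pepL, 17, 24 and 9 reads in IL27_scr, and 13, 17 and 11 reads in plasmid control. These counts are small, and IL27_pepL replicate 1 equals IL27_scr replicate 3 in reads. Its log2 fold changes were -1.25 ± 0.46 against plasmid control and -1.40 ± 0.44 against IL27_scr (edgeR adjusted p = 0.137 and 0.0977). Bdnf, a neurotrophin gene with REST sites, was at 54.4 ± 4.45 CPM in IL27_pepL, 54.5 ± 1.82 CPM in IL27_scr and 58.7 ± 0.587 CPM in plasmid control (SD, n = 3 each). Its fold changes against plasmid control were -0.11 ± 0.06 in both (edgeR adjusted p = 0.296 for IL27_pepL and 0.999 for IL27_scr). In IL27_pepL against IL27_scr 3 of the 14 had an unadjusted p under 0.05 and both other tools called 0, with a median of -0.10. Of all 12125 genes, 2823 had a p that low there. Vgf, a neuropeptide precursor gene, was at -0.64 ± 0.22 there (edgeR adjusted p = 0.115). The summed level of the 14 genes was 211 to 231 CPM in IL27_pepL, 215 to 219 CPM in IL27_scr and 221 to 225 CPM in plasmid control.

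**Figure D3:**
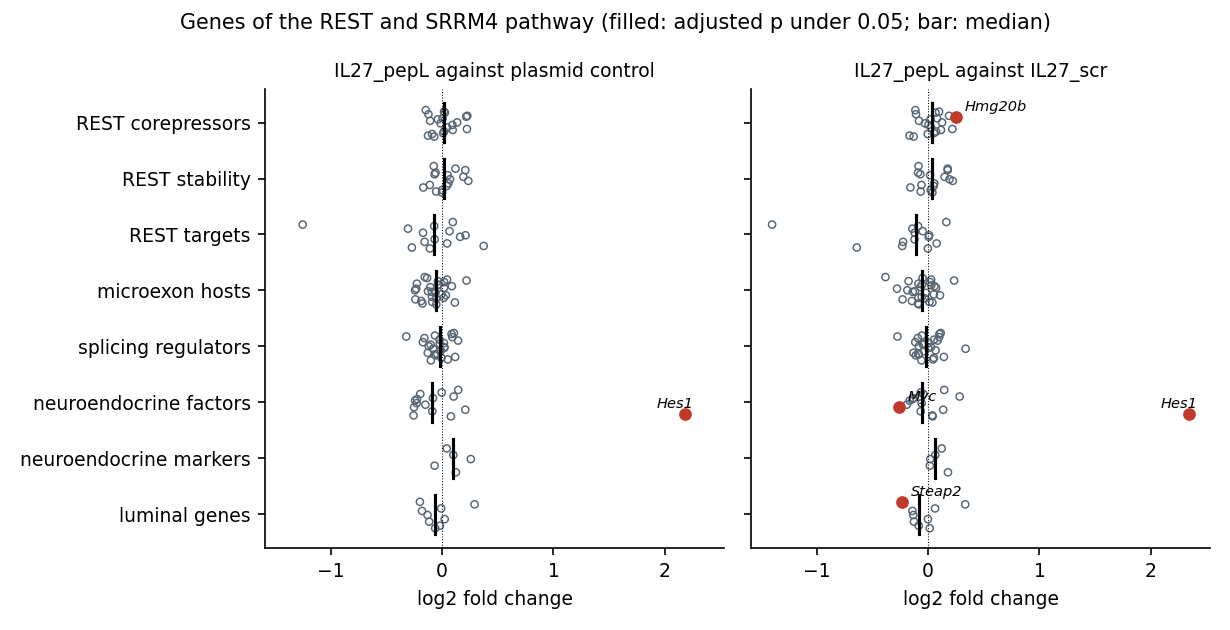
Log2 fold changes of the listed genes with a row, by group of genes, for IL27_pepL against plasmid control (left) and against IL27_scr (right). Each circle is a gene, filled circles passed at an edgeR adjusted p under 0.05 and the bar is the list's median. Hes1 lies at 2.18 and 2.34, and Hmg20b, Myc and Steap2 are the other filled circles.

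Genes that carry neural microexons, the very short exons that SRRM4 acts on, were next compared at the gene level. Of 30 listed, 28 were counted and 0 passed in any comparison in the edgeR fit without a replicate block. In IL27_pepL against plasmid control 8 had an unadjusted p under 0.05, DESeq2 called 2 and limma-voom 0, with a median of -0.06. Of all 12125 genes, 2784 had a p that low and DESeq2 called 774. Among the 28, the lowest p-values were those of Kif1b, a kinesin gene, at -0.24 ± 0.06 (edgeR adjusted p = 0.0693) and Daam1, a formin gene, at -0.24 ± 0.06 (0.0723). With a replicate block Daam1, Kif1b and Mef2a fell there (edgeR adjusted p = 0.0214, 0.0273 and 0.0481), where 8.4% of all genes passed. For IL27_pepL against IL27_scr, 9 of the 28 had an unadjusted p under 0.05, DESeq2 called 2 and limma-voom 0. Of all genes, 2823 had a p that low and DESeq2 called 793, so no excess is read from these counts. Daam1 was at -0.23 ± 0.06 (edgeR adjusted p = 0.0708) and Cpeb4, which encodes a regulator of poly(A) tails, at -0.28 ± 0.08 (0.0771). Daam1 was at 78.7, 85.4 and 81.6 CPM in IL27_pepL, 95.6, 99.1 and 92.9 CPM in IL27_scr, and 91.0, 107 and 91.7 CPM in plasmid control. Its IL27_pepL libraries were the lowest 3 of the 9, and libraries lay so for 13.4% of genes against plasmid control and 14.3% against IL27_scr. In IL27_scr against plasmid control Asap1 was at -0.10 ± 0.06 and Ptprf at 0.14 ± 0.08 (edgeR adjusted p = 0.999 for both).

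Other splicing regulators gave 0 calls by edgeR in any comparison among 26 counted of 31 listed. For IL27_pepL against plasmid control, 4 had an unadjusted p under 0.05, DESeq2 called 1 and limma-voom 0, with a median of -0.02. Hnrnpl, which binds CA-rich RNA, was at 0.14 ± 0.05 and Ptbp2, the neural polypyrimidine tract binding protein, at -0.17 ± 0.06 (edgeR adjusted p = 0.101 and 0.113). In IL27_pepL against IL27_scr Rnps1, which cooperates with SRRM4 on microexons, was at 0.14 ± 0.05 and U2af1, which reads the AG at the 3' splice site, at 0.10 ± 0.05 (edgeR adjusted p = 0.0971 and 0.224), with 1 of the 26 at an unadjusted p under 0.05 and 0 called by the other tools. U2af1 was at -0.04 with the length and GC offset. Ptbp1, which represses neural exons outside the nervous system, was named after its values were seen. It stood at 656 ± 8.49 CPM in IL27_pepL, 636 ± 4.75 CPM in IL27_scr and 633 ± 5.08 CPM in plasmid control (SD, n = 3 each). The related gene Srrm3 had no row.

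Transcription factors of neuroendocrine and Notch biology were counted for 15 of 24 listed genes. Neurod1, Pou3f2, Insm1, Sox2, Foxa1, Mycn, Nkx2-1 and Dll3 were among those with no row. For IL27_pepL against plasmid control, 6 of the 15 had an unadjusted p under 0.05, DESeq2 called 3 and limma-voom 1. Against IL27_scr these counts were 5, 2 and 2. Of all 12125 genes, 2784 and 2823 had a p that low in the 2 comparisons, and DESeq2 called 774 and 793. With a replicate block E2f1 rose and Myc and Notch2 fell against plasmid control (edgeR adjusted p = 0.0298, 0.0249 and 0.0210), where 8.4% of all genes passed. Without the block, the Notch target Hes1, a repressor of neuroendocrine factors, was the 1 gene of the list that rose there. In that fit 0.429% of all genes passed as higher. Hes1 was at 19.4, 19.2 and 23.3 CPM in IL27_pepL, 4.40, 4.07 and 3.69 CPM in IL27_scr, and 4.56, 5.05 and 3.94 CPM in plasmid control. The log2 fold changes were 2.18 ± 0.11 against plasmid control and 2.34 ± 0.11 against IL27_scr (edgeR adjusted p = 1.74e-07 and 2.22e-07). Myc, a growth-promoting factor, fell in IL27_pepL against IL27_scr to 195, 207 and 222 CPM, against 242, 256 and 248 CPM in IL27_scr, where 1.44% of all genes passed as lower. Its log2 fold change was -0.26 ± 0.06 (edgeR adjusted p = 0.0491). Plasmid control libraries were at 234, 272 and 237 CPM, and there the fold change was -0.25 ± 0.06 (edgeR adjusted p = 0.0619). The call against IL27_scr was lost without replicate 2 of IL27_pepL (0.133), without any IL27_scr library (0.113, 0.168 and 0.126 for replicates 1, 2 and 3) and without replicates 1 and 3 of plasmid control (0.0688 and 0.0733). It was also lost with DESeq2 size factors (0.0517), with a filter at 1 CPM (0.0547) and with the compared groups alone (0.0562). Over 20 alternatives its adjusted p ran from 0.00301 to 0.168.

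Neuroendocrine markers showed no call. Only 5 of 16 were counted, and Syp, Chga, Chgb, Scg2, Scg3 and Ddc were among the 11 with no row. In IL27_pepL against plasmid control 1 of the 5 had an unadjusted p under 0.05, both other tools called 0 and the median was 0.10. Against IL27_scr 0 of the 5 had one, and the other tools again called 0. Uchl1, a ubiquitin hydrolase of neural and endocrine cells, was at 10.8 ± 1.79 CPM in IL27_pepL, 10.7 ± 0.686 CPM in IL27_scr and 9.01 ± 0.792 CPM in plasmid control (SD, n = 3 each). Its log2 fold change in IL27_pepL against plasmid control was 0.26 ± 0.12 (edgeR adjusted p = 0.206). The summed level of the 5 markers was 54.5 to 66.3 CPM in IL27_pepL, 54.4 to 61.5 CPM in IL27_scr and 52.8 to 59.2 CPM in plasmid control, so the groups overlapped.

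Among luminal genes, Steap2, a metalloreductase of prostate epithelium, fell in IL27_pepL against IL27_scr and the other 8 counted did not pass. It was at 254, 258 and 231 CPM in IL27_pepL and 293, 295 and 283 CPM in IL27_scr. The log2 fold change was -0.23 ± 0.05 (edgeR adjusted p = 0.0371), and with the length and GC offset it was -0.12 (0.140). The call was lost without replicates 2 and 3 of IL27_pepL (0.0667 and 0.0576), without any IL27_scr library (0.143, 0.142 and 0.0879 for replicates 1, 2 and 3) and without replicates 1 and 3 of plasmid control (0.0688 and 0.0566). With the compared groups alone the adjusted p was 0.0695. Over 20 alternatives its adjusted p ran from 0.00476 to 0.143. Against plasmid control 0 of the 9 passed without a replicate block, with 3 at an unadjusted p under 0.05, DESeq2 calling 1 and limma-voom 0. Of all genes, 2784 had a p that low there and DESeq2 called 774. With the block Steap2 fell against plasmid control too (edgeR adjusted p = 0.0214), where 8.4% of all genes passed. With the length and GC offset it was at -0.054 there (edgeR adjusted p = 0.535), and at -0.055 with offset and block (0.436).

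Deviations of same-numbered IL27_pepL and IL27_scr libraries correlated at 0.131 to 0.401, so their comparison was also fitted with the replicate number as a block. That pairing is uncertain. IL27_pepL replicate 3 correlated at 0.173 with IL27_scr replicate 2, against 0.131 with IL27_scr replicate 3. The block was fitted over all 9 libraries, including plasmid control, which the numbers did not pair with IL27_pepL. Calls made with the block depend on this pairing. With the replicate block 1110 of 12125 genes passed (9.15%), 4.72% as higher and 4.44% as lower. Of the genes named above, Hmg20b and Hes1 rose and Myc and Steap2 fell in this fit too. Beside the markers Acta2 and Kdr, further calls made with the block were Skp1a, which rose (adjusted p = 0.0177), and Nefm, Vgf, Daam1, Cpeb4, Kif1b and Src, which fell (0.0490, 0.0423, 0.0186, 0.0296, 0.0483 and 0.0493), all by edgeR. The corresponding counts were 2 of 14 REST targets and 4 of 28 microexon hosts lower, against 4.44% of all genes. Without the block 0 of either list passed, and Nefm had few reads, so no excess is read from these counts. With the block and the length and GC correction together, Hmg20b (0.0601), Steap2 (0.0832) and Cpeb4 (0.0529) did not pass. Rest itself was at -0.10 ± 0.05 (edgeR adjusted p = 0.232) with the block, and Srrm4 at -0.86 ± 0.11.

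Genes were also ranked by how closely their pattern over the libraries followed that of Srrm4. Likeness was Pearson's r of log2 CPM over the 9 libraries among 10928 genes, as a description, since the libraries form 3 groups and share their scaling. The 6 highest were Zfp942 (r = 0.984), Zfp708 (0.980), Mis12 (0.979), Zbtb26 (0.979), Zfp748 (0.978) and Rbm12b2 (0.977). Mis12 encodes a kinetochore protein. Zfp748 averaged 14.9 CPM in IL27_pepL, 24.6 CPM in IL27_scr and 25.6 CPM in plasmid control, and Zfp708 averaged 6.89 CPM in IL27_pepL, 10.3 CPM in IL27_scr and 9.41 CPM in plasmid control. The 3 lowest were Ctgf, which encodes a matricellular growth factor (r = -0.981), the corepressor subunit gene Hmg20b (-0.979) and the lysyl-tRNA synthetase gene Kars (-0.975). Ctgf averaged 80.5 CPM in IL27_pepL, 58.3 CPM in IL27_scr and 60.3 CPM in plasmid control.

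Other genes stood nearest to Rest. The 6 highest were Ccdc126 (r = 0.957), Zmat3 (0.954), Exoc8 (0.950), Stim2 (0.946), Zfp790 (0.945) and Klhl9 (0.926). Zmat3, a p53-induced RNA-binding protein gene, averaged 62.8 CPM in IL27_pepL, 67.6 CPM in IL27_scr and 76.1 CPM in plasmid control. Exoc8, an exocyst subunit gene, averaged 37.3 CPM in IL27_pepL, 42.9 CPM in IL27_scr and 48.2 CPM in plasmid control. As for Rest, these means stood lowest in IL27_pepL and highest in plasmid control. The 3 lowest were the G protein subunit gene Gnb4 (r = -0.960), the inositol kinase gene Itpk1 (-0.954) and the autophagy gene Wipi1 (-0.951).

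**Figure D4:**
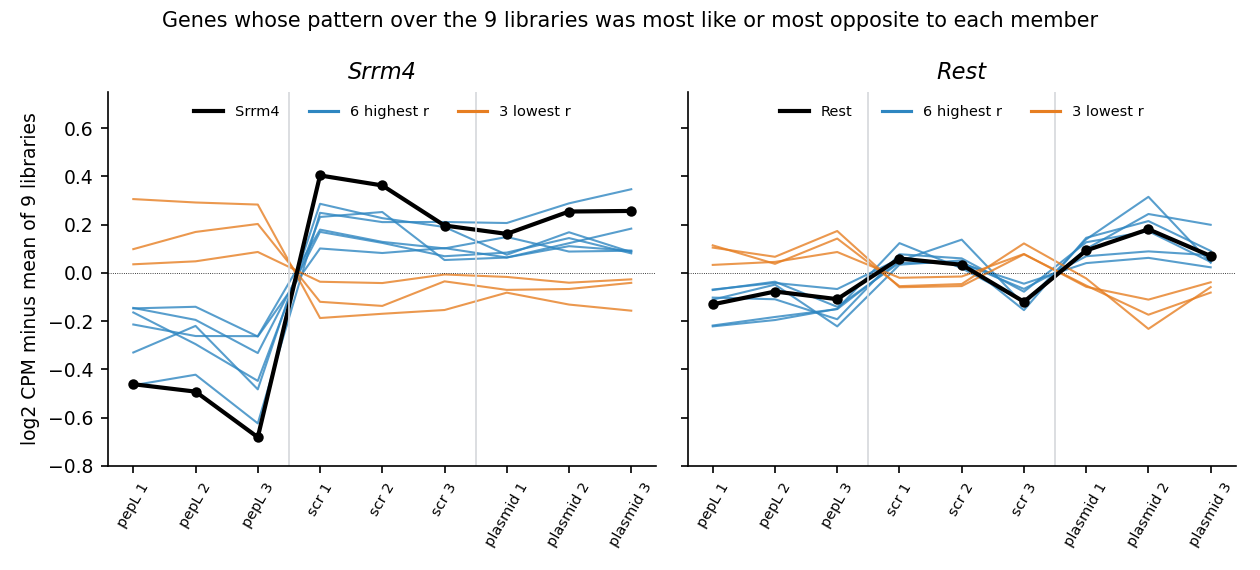
Log2 CPM minus the mean of the 9 libraries for Srrm4 (left, black) and Rest (right, black), for their 6 genes of highest r (blue) and 3 of lowest r (orange), by library. Srrm4 and its likest genes are low in the 3 IL27_pepL libraries and level over the other 6, while Rest is lowest in IL27_pepL and highest in plasmid control, with a narrower spread.

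Genes beside the members on chromosome 5 did not pass in any comparison in the edgeR fit without a replicate block. The 3 nearest counted genes on either side of Srrm4 were Hspb8, Prkab1, Cit, Suds3, Taok3 and Pebp1, and those of Rest were Spink2, Srp72, Paics, Noa1, Polr2b and Igfbp7. Suds3, described above at 0.23 ± 0.06 in IL27_pepL against plasmid control, passed there with DESeq2 (adjusted p = 0.0193) and in edgeR without IL27_pepL replicate 1 (0.00300), and over 20 alternatives its adjusted p ran from 0.00300 to 0.308. Hspb8, a small heat shock protein gene 16.4 kb from Srrm4, had a log2 fold change of 0.15 ± 0.06 in IL27_pepL against plasmid control (edgeR adjusted p = 0.140). Noa1, a mitochondrial GTPase gene 7.75 kb from Rest, was at 0.11 ± 0.05 (edgeR adjusted p = 0.233). Both lay above 0 where their neighbours Srrm4 and Rest lay below.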

How the data were processed

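Raw read counts per gene were deposited by the authors as whole numbers, with 12125 genes in 9 libraries. Per the submitters' processing notes, the tools were FastQC, STAR 1.5.1, featureCounts, Subread 1.6.1 and edgeR 3.22.5, with build mm10. The counts were tested with edgeR 4.0.16 in R 4.3.3 (TMM scaling, 1 quasi-likelihood fit of all 9 libraries, Benjamini-Hochberg adjustment over all genes, threshold 0.05). The low-count filter removed 0 genes. DESeq2 1.42.0 and limma 3.58.1 were alternatives, and the fit was tested on simulated data. The biological coefficient of variation was 5.76%. The members, gene lists and alternatives were chosen with earlier results of these data known. Genes named are the members, up to 4 called genes of each list or else the 2 of smallest p, the 6 most and 3 least like each member (predicted genes passed over), 3 neighbours on each side, and exceptions stated. Same-numbered libraries were treated as paired where every correlation of their deviations exceeded 0.1: these were 0.131 to 0.401 for IL27_pepL with IL27_scr and 0.120 to 0.307 for IL27_scr with plasmid control, from the data and not the labels. SDs and SEs cover spread between libraries. A fall in Srrm4 chose that gene. Some results are not reported here because they concern withheld items.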

Additional observations from a re-analysis of the deposited data

How the results depend on the processing

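Over the alternatives run, Srrm4 and Rest kept the direction of every fold change; those of Srrm4 ran from -0.80 to -0.70 for IL27_pepL against plasmid control, -0.92 to -0.80 for IL27_pepL against IL27_scr and 0.06 to 0.16 for IL27_scr against plasmid control. Rest in IL27_pepL against plasmid control passed with DESeq2 (-0.22, adjusted p = 0.0238), with the replicate block (edgeR, -0.22, 0.0319) and without IL27_pepL replicate 1 (edgeR, -0.20, 0.0407), and leaving out each library gave -0.24 to -0.19. In that comparison the numbers did not pair the libraries, with correlations of -0.0375 to 0.232; between IL27_scr and plasmid control, where they did, the block changed no call of Srrm4 or Rest. Flags for single libraries need 4 or more per group and were not made.

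The count of genes called moved most. In IL27_pepL against plasmid control it was 197, with 774 by DESeq2, 1019 with the replicate block, 48 with the compared groups alone, 712 with the length and GC offset and block, and 36 to 2084 when each library was left out. In IL27_pepL against IL27_scr it was 306, with 793 by DESeq2, 1110 with the replicate block, 165 with the compared groups alone, 460 with the offset, 1035 with the offset and block, and 69 to 1782 when each library was left out. In IL27_scr against plasmid control it was 3, also with the replicate block, with 1 after removal of Il27 and Ebi3, and 312 genes had an unadjusted p under 0.05. The cause was not tested.

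Genes near 0 changed sign. In IL27_pepL against IL27_scr, Cd68 and U2af1 were at -0.0134 and -0.0435 with the offset, and at -0.0137 and -0.0448 with the offset and block. Leaving out each library there gave Cdh5 -0.281 to 0.00112 and Nsg1 -0.00713 to 0.232. In IL27_pepL against plasmid control it gave Cdh5 -0.195 to 0.0855 and Csf1r -0.0768 to 0.130, and in IL27_scr against plasmid control Cdh5 -0.0669 to 0.269. The cause was not tested.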
